A study of Zea mays with 9 samples.

Results

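The genes described here carry sulfur from sulfate into cysteine and glutathione. A gene was a member if its description in the deposited count table named a sulfate transporter, ATP sulfurylase, adenylyl-sulfate kinase, adenylylsulfate reductase, sulfite reductase, serine acetyltransferase, cysteine synthase, glutamate--cysteine ligase or glutathione synthetase. These words matched 58 of the 39755 genes in the table. A description gives the most similar described protein, often of rice or Arabidopsis, and is not a maize gene symbol. The words also drew in 8 adenylylsulfate reductase-like genes and 2 ferredoxin--nitrite reductase genes, which matched only through the name of a protein domain they share with sulfite reductase; both families are described apart from the enzymes of the pathway.

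The RNA came from the second leaf of seedlings of the maize cultivar Golden Bantam, grown in soil for 8 days. Each solution entered the cut leaf under a vacuum of 60 mbar. The SA group received 2 mM salicylic acid, a hormone of plant defence. The Zip1 group received 5 µM of Zip1, a signalling peptide of maize, and the mock group received water with 0.1% of the solvent DMSO. The labels do not say whether DMSO was in the other two solutions. All leaves were taken after 6 h, with 3 libraries in each group. The labels do not say whether the libraries of a group came from separate plants, so the p-values measure only the spread between these libraries, which may be partly technical.

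Plants take up sulfate through membrane transporters. ATP sulfurylase activates it to adenylylsulfate (APS), which adenylylsulfate reductase reduces to sulfite and sulfite reductase then reduces to sulfide. Adenylyl-sulfate kinase diverts APS to the sulfate donor of sulfotransferases. Serine acetyltransferase makes O-acetylserine, and cysteine synthase joins it with sulfide to give cysteine. Glutamate--cysteine ligase and glutathione synthetase then build glutathione, a thiol that buffers the redox state of the cell and is joined to foreign and reactive compounds by glutathione S-transferases. In C4 leaves such as those of maize, the first enzymes of sulfate reduction are known to sit mainly in the bundle sheath cells, which surround the veins, and glutathione synthesis mainly in the mesophyll.

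Library totals lay between 28840453 and 38794412 counts, and their scaling factors (TMM, the trimmed mean of M-values) between 0.9104 and 1.096. Libraries of a group correlated at 0.939 to 0.958 on log2 CPM, the counts scaled to a common library size, and no pair agreed within counting noise. Of the 38 genes described as chlorophyll a-b binding proteins, which mark photosynthetic leaf tissue, 5 had no count in any library and the others together held 46200 to 62200 CPM in SA libraries, 34200 to 67400 in Zip1 libraries and 42600 to 91800 in mock libraries. The 14 bundle sheath marker genes summed to 17200 to 18000 CPM in SA libraries, 16000 to 23700 in Zip1 libraries and 14200 to 26600 in mock libraries. The 9 mesophyll marker genes summed to 52100 to 61700 CPM in SA libraries, 49400 to 64600 in Zip1 libraries and 59900 to 66300 in mock libraries. None of the bundle sheath or mesophyll markers was at 0 in all libraries, and 1 gene of each list was called: the malic enzyme gene Zm00001eb349990 (log2 fold change 3.07 with SA and 2.98 with Zip1) and the phosphoenolpyruvate carboxylase gene Zm00001eb238670 (1.69 with SA and 1.91 with Zip1). The ranges of the groups overlapped for each list, and in whole leaf tissue fewer cells of a type and less RNA per cell cannot be told apart. The part of these markers in the results below was not tested.

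With SA, both adenylylsulfate reductase genes and the sulfite reductase gene rose, as did 1 of 2 glutamate--cysteine ligase genes, 1 of 5 tested glutathione synthetase genes and both nitrite reductase genes. Of 3 serine acetyltransferase genes 1 rose and 1 fell. No sulfate transporter, ATP sulfurylase, adenylyl-sulfate kinase or cysteine synthase gene was called in the main fit, with group as the only term. A fit that also held the replicate number called a transporter and a cysteine synthase, named at the end of this paragraph. In edgeR's quasi-likelihood test, with p-values adjusted over all 23077 genes tested and called under 0.05, 8 members were higher and 1 was lower in SA than in mock leaves, out of 49 members with enough counts to be tested. That is 18.4% of the tested members, against 6.22% of all tested genes; 5.11% of all tested genes were higher and 1.11% lower. Without the 2 nitrite reductases, 6 were higher and 1 lower of 47 tested members (14.9%). In Zip1 leaves, 0 members were higher and 1 was lower than in mock leaves (2.04%, against 0.884% of all tested genes, 0.0607% lower), and 6 members had an unadjusted p under 0.05 (12.2%, against 11.5% of all tested genes). Between the 2 treatments, 0 members were higher and 6 were lower in Zip1 than in SA leaves (12.2%, against 4.11% of all tested genes, 2.56% lower), and 4 of 47 (8.51%) without the nitrite reductases. The median log2 fold change over the tested members was 0.15 for SA and −0.07 for Zip1, each against mock, and −0.28 for Zip1 against SA, beside −0.04, −0.01 and 0.01 over all tested genes. The 3 comparisons share libraries, so their values are given side by side and are not independent. Every called member had at least 50.2 normalised counts in each library, that is, counts scaled to one library size. With the replicate number as an added term (the replicate block), 11 members and 2220 of all tested genes were called for SA against mock. That fit added the sulfate transporter Zm00001eb154590, which was higher, and the cysteine synthase Zm00001eb376790, which was lower.

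**Figure D1:**
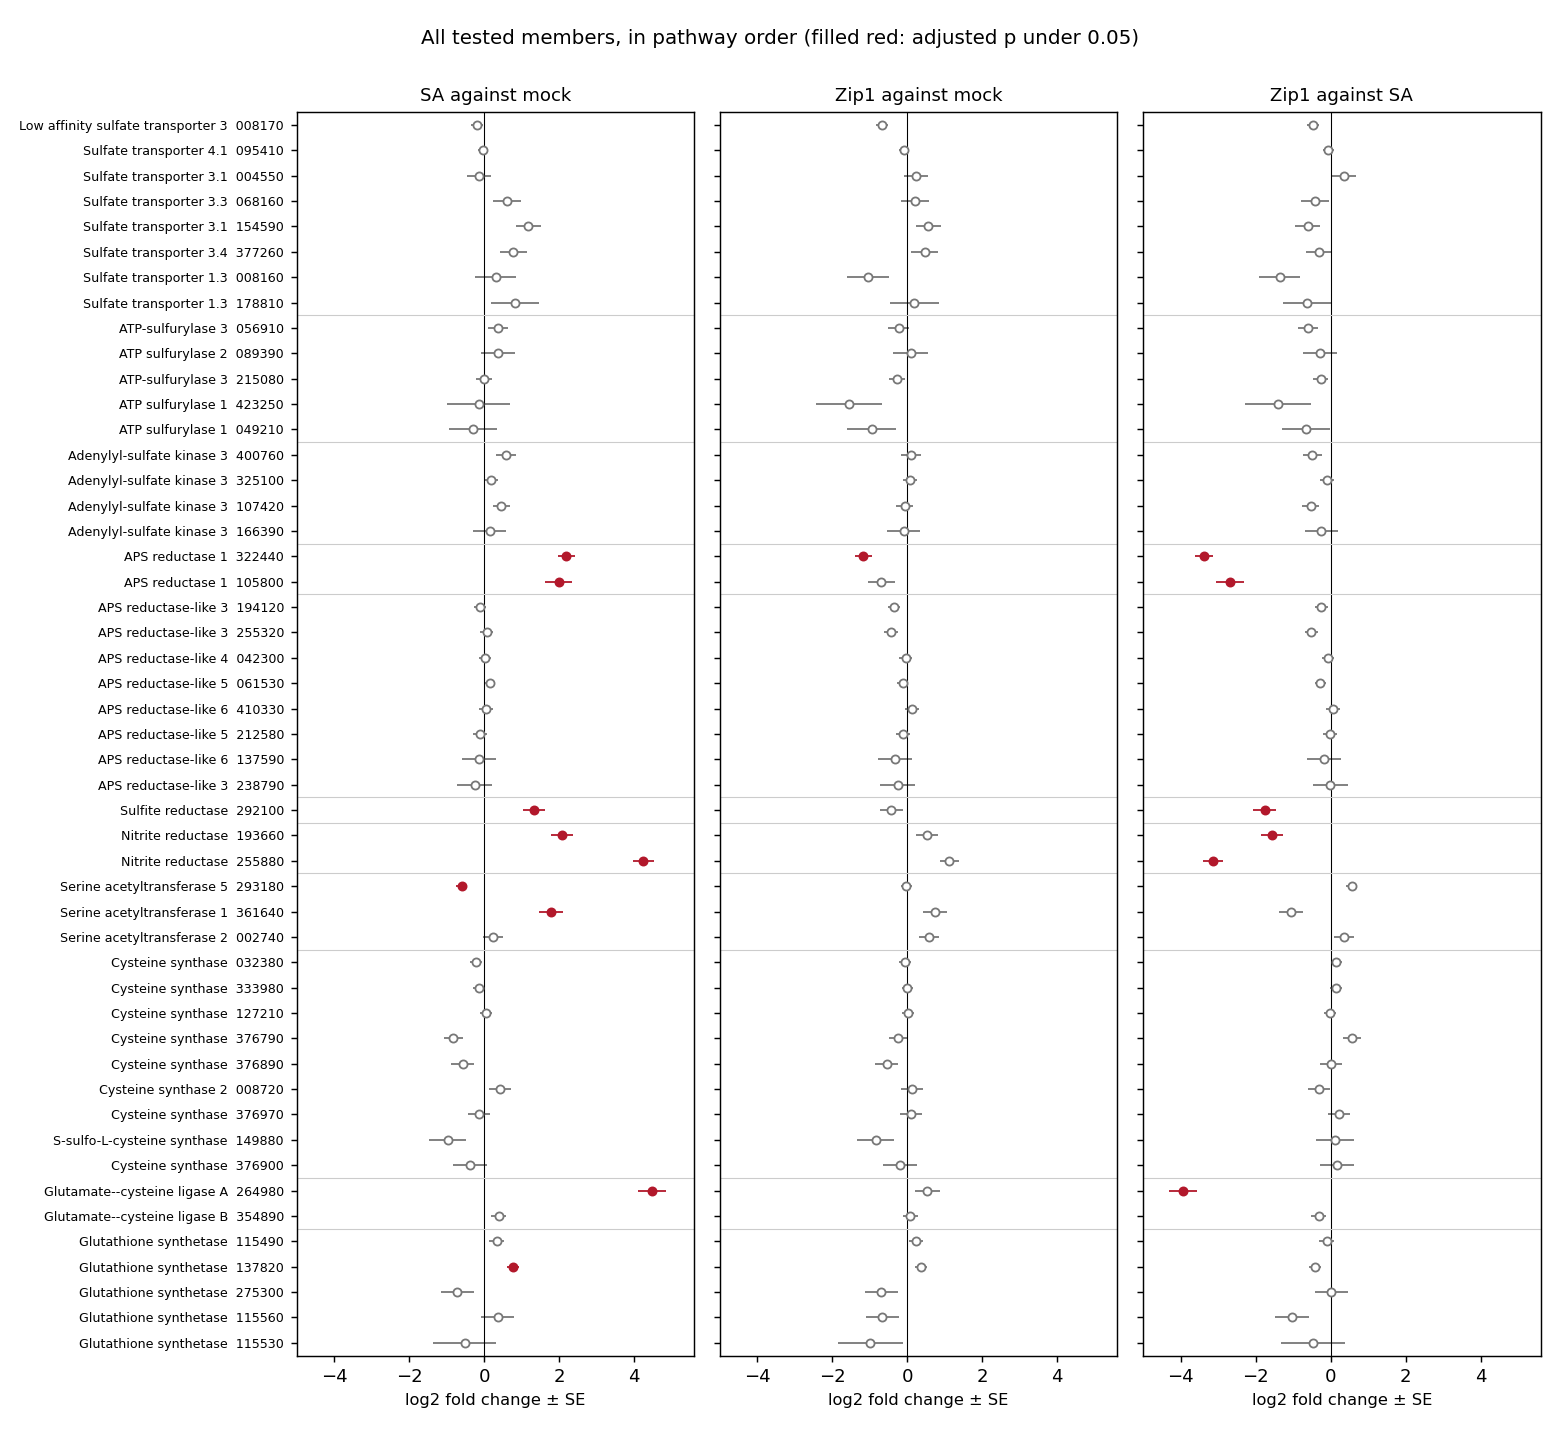
Log2 fold change with its standard error (horizontal axes) of the 49 tested members in pathway order from uptake at the top to glutathione synthetase at the bottom, with 1 panel for each comparison (SA and Zip1 against mock, and Zip1 against SA); labels end in the last 6 digits of the gene identifier, grey lines separate the enzyme classes and filled red points have an adjusted p under 0.05. Called members sit in the reductases, the serine acetyltransferases and the glutathione-making enzymes, with 9 called in the SA panel, 1 in the Zip1 panel and 6 in the panel of Zip1 against SA.

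Sulfate transporters bring sulfate into cells or move it across the membranes of the vacuole and plastid. Of their 9 genes, 8 were tested and none was called in any comparison of the main fit. At an unadjusted p under 0.05 there was 1 of 8 for SA against mock, 1 for Zip1 against mock and 2 for Zip1 against SA. Of all tested genes, 18.9%, 11.5% and 17.4% passed that threshold in the same comparisons, and the counts of this kind given for the classes below are to be read against these shares. Their summed level, in CPM per kb of gene length, was 101 ± 13 in SA leaves, 89.6 ± 8.1 in Zip1 leaves and 97.9 ± 1.2 in mock leaves (SD, n = 3 each).

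The most abundant transporter per length was Zm00001eb008170 (chromosome 1, 24728567 to 24733342, plus strand), described as low affinity sulfate transporter 3 of the legume Stylosanthes hamata. It had 3861, 2924 and 3209.9 normalised counts in the SA libraries, 2714, 2309 and 2146 in the Zip1 libraries, and 3609, 4016 and 3816 in the mock libraries. The Zip1 libraries all lay below the mock libraries, with a log2 fold change of −0.67 ± 0.16 (SE) that did not pass the test (adjusted p = 0.0848, edgeR quasi-likelihood test). Its neighbour Zm00001eb008160, described as sulfate transporter 1.3, a high-affinity type in Arabidopsis, was far lower, at 0.41 to 1.05 CPM per kb in the group means. The other high-affinity entries were as scarce: Zm00001eb178810 had group means of 0.206 to 0.367, and Zm00001eb401100 had 44 counts over all libraries and was not tested.

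Zm00001eb154590 (chromosome 3, 207302145 to 207307321, plus strand), described as sulfate transporter 3.1, was the uncalled member with the smallest p for SA against mock. It had 763, 472 and 717 normalised counts in the SA libraries, 432, 327 and 518 in the Zip1 libraries, and 328, 151 and 384 in the mock libraries. No SA library fell within the mock range, and the log2 fold change was 1.18 ± 0.33 (adjusted p = 0.0656, edgeR). In the fit with a replicate block the adjusted p was 0.0042. The plastid type, sulfate transporter 4.1 (Zm00001eb095410), was not called in any comparison, with 25.3 ± 1.8 CPM per kb in SA leaves, 24.3 ± 1.0 in Zip1 leaves and 25.9 ± 3.0 in mock leaves.

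Of the 8 ATP sulfurylase genes, which activate sulfate, 5 were tested and none was called in any comparison; 0 had an unadjusted p under 0.05 for SA or for Zip1 against mock, and 1 for Zip1 against SA. The most abundant, Zm00001eb056910 (chromosome 1, 281723855 to 281727680, minus strand; ATP-sulfurylase 3), had 2271, 1912 and 3707 normalised counts in the SA libraries, 2115, 1255 and 1814 in the Zip1 libraries, and 1964, 1677 and 2446 in the mock libraries. The 3 groups overlapped. The next, Zm00001eb089390, also overlapped between groups, with 1336 to 2141 normalised counts in the SA libraries, 792 to 2496 in the Zip1 libraries and 694 to 1631 in the mock libraries. The 3 untested genes of this class had 3, 1 and 0 counts over all libraries.

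The 4 adenylyl-sulfate kinase genes, which lead APS away from reduction, were all tested and none was called. Their log2 fold changes for SA against mock ran from 0.16 to 0.59, and 1 of them had an unadjusted p under 0.05. The most abundant, Zm00001eb400760 (chromosome 9, 154333225 to 154340020, plus strand), had 783, 824 and 832 normalised counts in the SA libraries, 724, 565 and 452 in the Zip1 libraries, and 642, 653 and 329.9 in the mock libraries. All SA libraries lay above all others, but the change against mock of 0.59 ± 0.26 on the log2 scale did not pass the test (adjusted p = 0.252, edgeR).

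Adenylylsulfate reductase, the enzyme at which sulfate reduction is known to be regulated most, rose with SA in both of its genes. Their summed level was 117 ± 14 CPM per kb in SA leaves, 12.6 ± 3.3 in Zip1 leaves and 26.3 ± 3.6 in mock leaves (SD, n = 3 each). Both genes are described as the chloroplast enzyme adenylylsulfate reductase 1 of rice, and since they share that description some reads may have been divided between them in the counting.

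The more abundant gene, Zm00001eb322440 (chromosome 7, 161352287 to 161355662, minus strand), had 6639, 5275 and 6848 normalised counts in the SA libraries, 692, 424 and 700.3 in the Zip1 libraries, and 1538, 1052 and 1508 in the mock libraries. The 3 groups did not overlap: SA libraries were the highest and Zip1 libraries the lowest. It rose 4.58-fold with SA (log2 fold change 2.19 ± 0.23, adjusted p = 0.000339, edgeR) and stayed called whichever of the 9 libraries was left out. It was the 1 member called for Zip1 against mock, 2.26-fold lower (−1.17 ± 0.23, adjusted p = 0.0451, edgeR). That call was lost in each of the 9 fits without 1 library, at adjusted p-values of 0.0508 to 0.173, the highest without mock replicate 1, and in the fit of the 6 Zip1 and mock libraries alone (0.0752). In Zip1 leaves it was 10.3-fold below its level in SA leaves (−3.37 ± 0.25, adjusted p = 8.15e-05, edgeR).

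The second gene, Zm00001eb105800 (chromosome 2, 209182240 to 209185565, minus strand), had 1271, 1164 and 1277 normalised counts in the SA libraries, 303, 161 and 117 in the Zip1 libraries, and 367, 385 and 182 in the mock libraries. SA libraries stood apart, while Zip1 and mock libraries overlapped. It rose 3.97-fold with SA (1.99 ± 0.36 on the log2 scale, adjusted p = 0.00722, edgeR), and Zip1 leaves were 6.41-fold lower than SA leaves (−2.68 ± 0.37, adjusted p = 0.0029, edgeR). Both calls stood in all 9 fits without 1 library. Against mock, Zip1 gave −0.69 ± 0.35 (adjusted p = 0.508, edgeR).

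The 8 adenylylsulfate reductase-like genes are a separate family. Plant proteins of this name hold a thioredoxin-like domain, and the name rests on sequence likeness. All 8 were tested and none was called in any comparison, and their log2 fold changes for SA against mock ran from −0.25 to 0.15. At an unadjusted p under 0.05 there were 0 for SA against mock, 1 for Zip1 against mock and 1 for Zip1 against SA. Their summed level was 118 ± 8 CPM per kb in SA leaves, 102 ± 7 in Zip1 leaves and 118 ± 9 in mock leaves.

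Sulfite reductase, which reduces sulfite to sulfide with electrons from ferredoxin, had 1 gene, Zm00001eb292100 (chromosome 6, 168474433 to 168479714, minus strand). It had 12299.7, 17252 and 13963 normalised counts in the SA libraries, 4974, 5085 and 2849 in the Zip1 libraries, and 6136, 7606 and 3542 in the mock libraries. SA libraries were above all others, and Zip1 and mock libraries overlapped. It rose 2.52-fold with SA (1.33 ± 0.30, adjusted p = 0.0245, edgeR). This call was lost in 4 of the 9 fits without 1 library, those without SA replicate 2, SA replicate 3, mock replicate 1 or mock replicate 3, at adjusted p-values of up to 0.0746. The level in Zip1 leaves was 3.37-fold lower than in SA leaves (−1.75 ± 0.31, adjusted p = 0.0104, edgeR), and this call stood in all 9 such fits.

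The 2 ferredoxin--nitrite reductase genes belong to nitrate assimilation, where the enzyme reduces nitrite to ammonium in the plastid with a siroheme cofactor that it has in common with sulfite reductase. Both rose with SA. Zm00001eb255880 (chromosome 5, 218273575 to 218276600, minus strand) had 1612, 1470.2 and 1030.1 normalised counts in the SA libraries, 171, 141 and 157 in the Zip1 libraries, and 94.96, 70.5 and 50.2 in the mock libraries. The 3 groups did not overlap. The rise with SA was 19.1-fold (4.25 ± 0.28, adjusted p = 1.83e-05, edgeR). For Zip1 against mock it was the uncalled member with the smallest p (1.12 ± 0.26, adjusted p = 0.077, edgeR), and Zip1 leaves were 8.76-fold lower than SA leaves (−3.13 ± 0.26, adjusted p = 0.000194, edgeR).

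The other nitrite reductase gene, Zm00001eb193660 (chromosome 4, 183572540 to 183576081, plus strand), had 4147, 3725 and 2802 normalised counts in the SA libraries, 1419, 1225 and 991 in the Zip1 libraries, and 940.2, 1129.8 and 463 in the mock libraries. It rose 4.22-fold with SA (2.08 ± 0.30, adjusted p = 0.00218, edgeR). The Zip1 and mock libraries overlapped, and Zip1 leaves were 2.94-fold lower than SA leaves (−1.55 ± 0.30, adjusted p = 0.0162, edgeR); that call was lost without Zip1 replicate 2 and without Zip1 replicate 3, at adjusted p-values of up to 0.0704. The share of the summed nitrite reductase level per length held by this gene was 68.8% in SA leaves and 90.9% in mock leaves. Mock replicate 3 was the lowest mock library for sulfite reductase, for both nitrite reductases and for the adenylylsulfate reductase Zm00001eb105800.

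**Figure D2:**
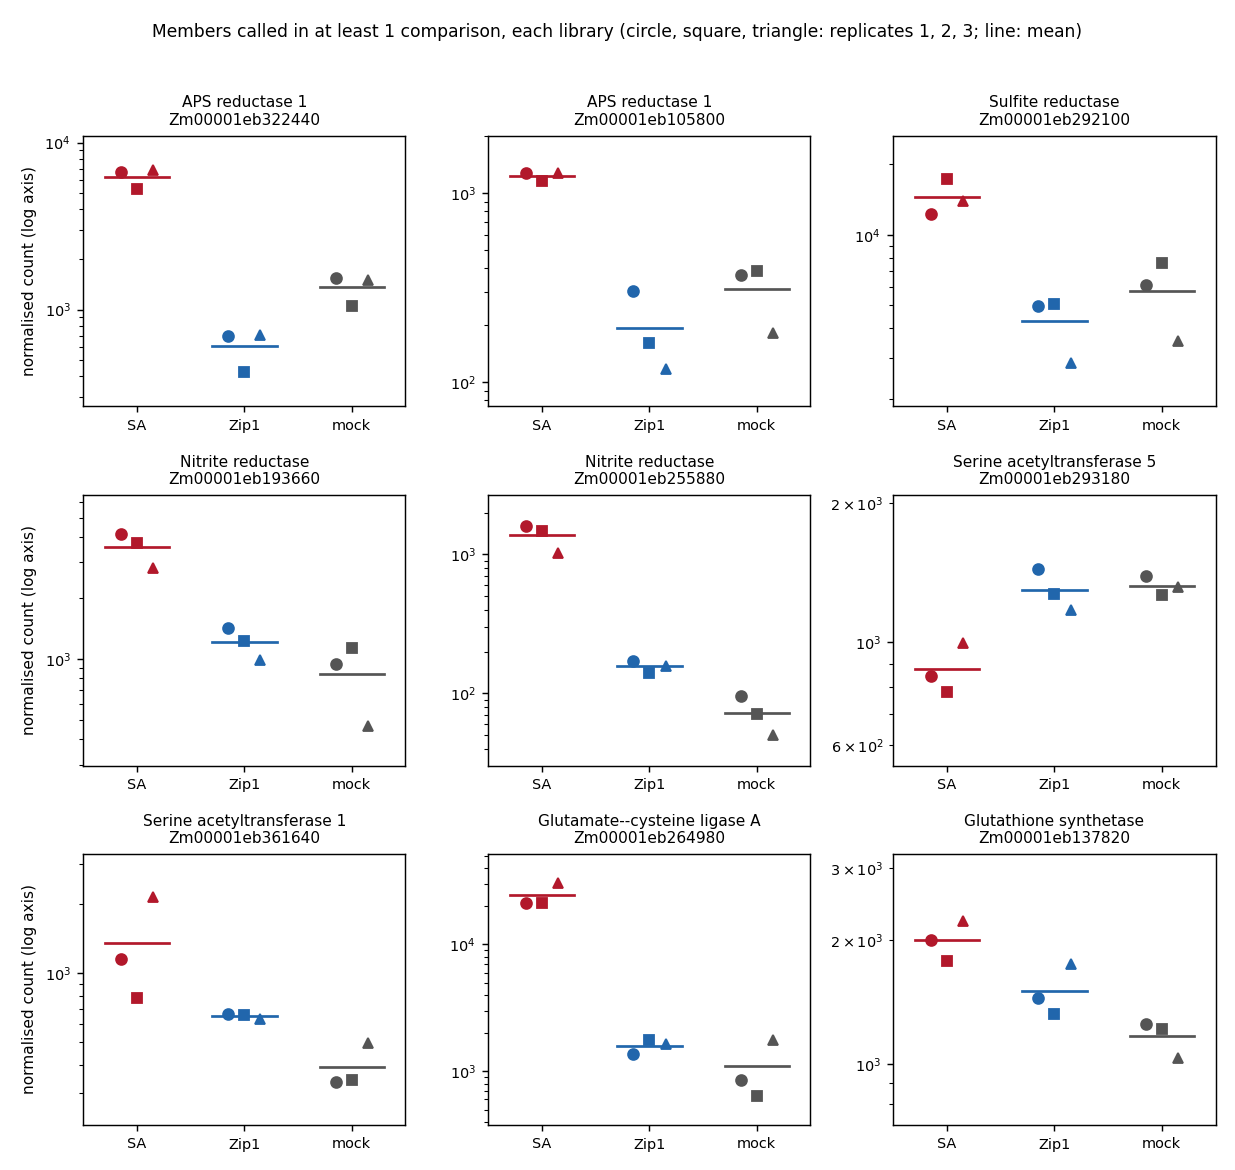
Normalised counts (vertical log axes) of the 9 members called in at least 1 comparison, in the 3 SA, 3 Zip1 and 3 mock libraries; circles, squares and triangles are replicates 1, 2 and 3 and lines are group means. SA libraries lie above all mock libraries in 8 panels and below them in the panel of serine acetyltransferase 5 (Zm00001eb293180). The panels were chosen because their genes were called, so this separation is not further evidence of a change.

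The 3 serine acetyltransferase genes, which supply the carbon skeleton of cysteine, took different directions with SA. Zm00001eb361640 (chromosome 8, 159516055 to 159517439, plus strand), most like serine acetyltransferase 1 of rice, had 1152, 779 and 2156 normalised counts in the SA libraries, 662, 662 and 635 in the Zip1 libraries, and 336, 343 and 498 in the mock libraries. The SA libraries were the highest and the mock libraries the lowest, with no overlap. It rose 3.47-fold with SA (1.79 ± 0.32, adjusted p = 0.00756, edgeR), a call that stood in all 9 fits without 1 library. The change of 0.73 ± 0.32 with Zip1 did not pass the test (adjusted p = 0.409, edgeR), nor did that of −1.06 ± 0.32 for Zip1 against SA (adjusted p = 0.0989, edgeR).

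Zm00001eb293180 (chromosome 6, 170871898 to 170874309, plus strand), most like serine acetyltransferase 5 of rice, was the 1 member that fell with SA. It had 844, 782 and 996 normalised counts in the SA libraries, 1442, 1272 and 1174 in the Zip1 libraries, and 1392, 1262 and 1314 in the mock libraries. It was 1.51-fold lower in SA than in mock leaves (−0.60 ± 0.15, adjusted p = 0.0366, edgeR). The call was lost in 6 of the 9 fits without 1 library, with an adjusted p of up to 0.133 without SA replicate 2, and in the fit of the 6 SA and mock libraries alone (0.0801). It was also the uncalled member with the smallest p for Zip1 against SA (0.57 ± 0.15, adjusted p = 0.0601, edgeR).

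The third, Zm00001eb002740, had 813, 609 and 1251 normalised counts in the SA libraries, 1311, 870.1 and 1226 in the Zip1 libraries, and 725, 627 and 922 in the mock libraries, and it was not called. The most abundant serine acetyltransferase per length was Zm00001eb361640 in SA leaves, at 49.7% of the summed level, and Zm00001eb293180 in mock leaves, at 54.2%. The summed level of the class was 62.8 ± 23.9 CPM per kb in SA leaves, 58.8 ± 5.4 in Zip1 leaves and 47.1 ± 4.7 in mock leaves.

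Of the 11 cysteine synthase genes, 9 were tested and none was called in any comparison of the main fit. At an unadjusted p under 0.05 there was 1 for SA against mock, 0 for Zip1 against mock and 1 for Zip1 against SA. This class had the highest summed level per length in each group, at 416 ± 16 CPM per kb in SA leaves, 461 ± 19 in Zip1 leaves and 475 ± 44 in mock leaves. Zm00001eb032380 (chromosome 1, 181119251 to 181123940, minus strand), whose description is a maize cysteine synthase, held 49.8% of that level in SA leaves and 50.4% in mock leaves. It had 11520.5, 12122 and 13251 normalised counts in the SA libraries, 13473, 13732 and 13989.8 in the Zip1 libraries, and 13541, 15922 and 13228 in the mock libraries. SA and mock libraries met at the edge of their ranges, with a log2 fold change of −0.21 ± 0.16 (adjusted p = 0.537, edgeR).

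The gene with an unadjusted p under 0.05 for SA against mock, named here because it was the only one, was Zm00001eb376790, with 533, 987 and 787 normalised counts in the SA libraries, 1008, 1329 and 1110.4 in the Zip1 libraries, and 1003, 1509 and 1547 in the mock libraries. Its change of −0.81 ± 0.24 had an adjusted p of 0.0803 (edgeR), and of 0.007 with the replicate block. It lies on chromosome 9 between 20969937 and 20973027 with 4 other cysteine synthase genes within the next 500000 bases, where near-identical copies could have shared reads. The other 4 were scarcer, at group means of 0.0513 to 7.77 CPM per kb. The S-sulfocysteine synthase entry, Zm00001eb149880, an enzyme that uses thiosulfate in Arabidopsis chloroplasts, averaged 1.41 ± 0.82 CPM per kb in SA leaves, 1.54 ± 0.14 in Zip1 leaves and 2.77 ± 1.62 in mock leaves.

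Glutamate--cysteine ligase, the first and rate-limiting enzyme of glutathione synthesis, gave the largest fold change among the members, and in 1 of its 2 genes. Zm00001eb264980 (chromosome 6, 32298243 to 32303351, minus strand), most like ligase A of rice, had 21274, 21311 and 30304 normalised counts in the SA libraries, 1378, 1751 and 1628 in the Zip1 libraries, and 856, 643 and 1775 in the mock libraries. The SA libraries stood far above the others, and Zip1 and mock libraries overlapped through mock replicate 3. It rose 22.3-fold with SA (4.48 ± 0.38, adjusted p = 8.69e-05, edgeR) and was 15.3-fold lower in Zip1 than in SA leaves (−3.94 ± 0.37, adjusted p = 0.000409, edgeR). Both calls stood in all 9 fits without 1 library. Against mock, Zip1 gave 0.54 ± 0.33 (adjusted p = 0.609, edgeR).

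The paralogue most like ligase B, Zm00001eb354890 (chromosome 8, 134519093 to 134531394, minus strand), had 1376, 1787 and 1678 normalised counts in the SA libraries, 1668, 1216 and 1012 in the Zip1 libraries, and 1179, 1377 and 1132 in the mock libraries. The groups overlapped, and the log2 fold change with SA was 0.39 ± 0.20 (adjusted p = 0.316, edgeR). Per length, the A gene stood at 349 ± 75 CPM per kb in SA leaves, 22.7 ± 2.7 in Zip1 leaves and 15.7 ± 8.6 in mock leaves, and the B gene at 20.3 ± 2.7 in SA leaves, 16.3 ± 4.2 in Zip1 leaves and 15.4 ± 1.6 in mock leaves (SD, n = 3 each). The A gene thus held 94.5% of the summed ligase level in SA leaves and 50.3% in mock leaves. The mock share is one of group means, and the A gene was far higher in mock replicate 3 than in the other mock libraries. Whether the change of the A gene differs from that of the B gene was not tested.

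**Figure D3:**
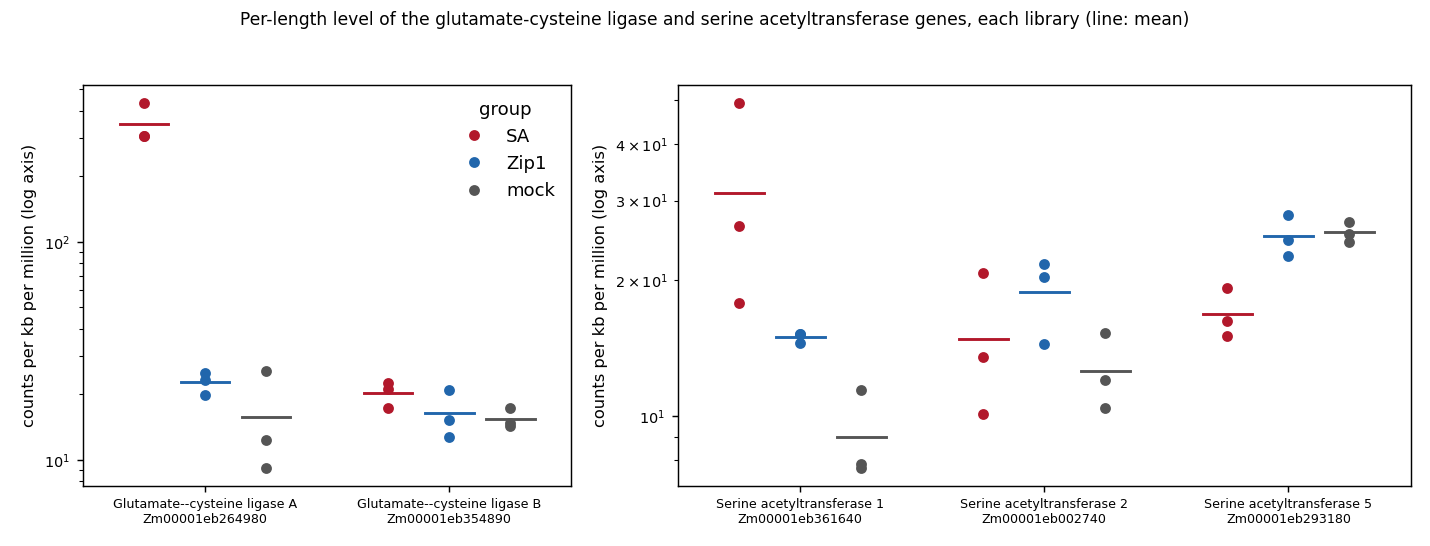
CPM per kb of gene length (vertical log axes) of the 2 glutamate--cysteine ligase genes, left, and the 3 serine acetyltransferase genes, right, in each SA, Zip1 and mock library, with lines at the group means. Ligase A averages 349 in SA leaves against 15.7 in mock leaves, while ligase B averages 20.3 against 15.4; serine acetyltransferase 1 is higher and serine acetyltransferase 5 lower in SA than in mock libraries.

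Of the 8 glutathione synthetase genes, which add glycine in the last step, 5 were tested and 1 was called. Zm00001eb137820 (chromosome 3, 135379742 to 135392795, plus strand) had 1999, 1785 and 2231 normalised counts in the SA libraries, 1446, 1324 and 1752 in the Zip1 libraries, and 1252, 1214 and 1033 in the mock libraries. The 3 groups did not overlap. It rose 1.72-fold with SA (0.78 ± 0.16, adjusted p = 0.0147, edgeR), and the call was lost without SA replicate 3 (0.0608) and without mock replicate 3. The changes of 0.37 ± 0.16 for Zip1 against mock (adjusted p = 0.407, edgeR) and of −0.41 ± 0.16 for Zip1 against SA (adjusted p = 0.203, edgeR) did not pass the test.

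The most abundant gene of the class, Zm00001eb115490 (chromosome 2, 236345798 to 236352309, minus strand), had 2596, 2179 and 2892 normalised counts in the SA libraries, 2679, 1843 and 2637 in the Zip1 libraries, and 2009, 1689 and 2386 in the mock libraries. The groups overlapped and it was not called. It lies among 4 other glutathione synthetase genes within 500000 bases, between 236337247 and 236473547, of which Zm00001eb115560 averaged 1.23 to 2.51 CPM per kb in the 3 groups and the rest less. Near-identical copies in this cluster could have shared reads. The summed level of the class was 67.8 ± 8.6 CPM per kb in SA leaves, 58.1 ± 7.1 in Zip1 leaves and 54.5 ± 4.1 in mock leaves.

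**Figure D4:**
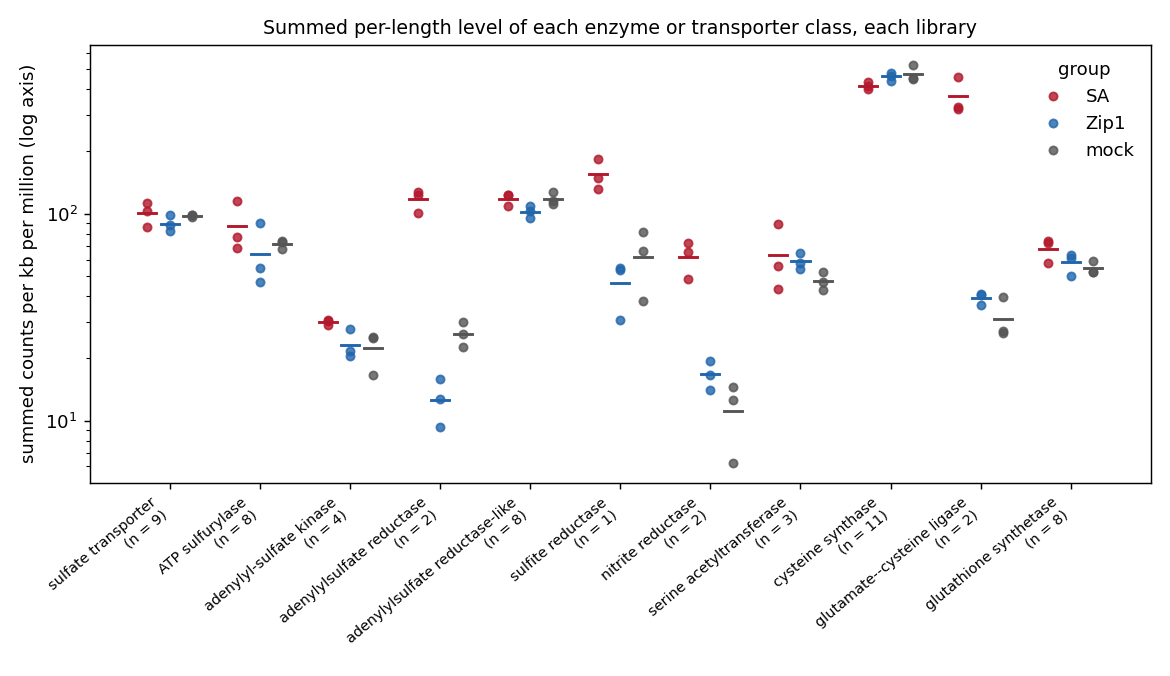
Summed CPM per kb (vertical log axis) of each enzyme or transporter class in each SA, Zip1 and mock library, with lines at the group means; n is the number of genes summed. SA libraries lie above all mock libraries for adenylylsulfate reductase, sulfite reductase, nitrite reductase, glutamate--cysteine ligase and, by less, adenylyl-sulfate kinase, and below them for cysteine synthase; the ranges overlap for transporters, ATP sulfurylase, serine acetyltransferase and glutathione synthetase.

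Set side by side as summed levels, the SA to mock ratio of group means was 11.9 for glutamate--cysteine ligase, 5.56 for nitrite reductase, 4.45 for adenylylsulfate reductase and 2.52 for sulfite reductase. It was 1.34 for adenylyl-sulfate kinase, 1.33 for serine acetyltransferase, 1.25 for glutathione synthetase, 1.21 for ATP sulfurylase, 1.03 for sulfate transporters, 1.003 for the adenylylsulfate reductase-like genes and 0.875 for cysteine synthase. The Zip1 to mock ratio was lowest for adenylylsulfate reductase, at 0.480, followed by sulfite reductase at 0.747, and highest for nitrite reductase, at 1.502. These ratios are descriptions without a test.

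Further genes were read from 4 word lists with the members left out. Only some of them use what the pathway makes, since some words name cofactors or other protein families. Of 96 tested genes for glutathione use and turnover, 24 were higher and 0 lower in SA than in mock leaves (25%, against 6.22% of all tested genes), 4 were higher and 0 lower in Zip1 than in mock leaves (4.17%, against 0.884%), and 0 were higher and 17 lower in Zip1 than in SA leaves (17.7%, against 4.11%). The median log2 fold change of the list was 0.18 for SA against mock, 0.16 for Zip1 against mock and −0.22 for Zip1 against SA. The words for glutathione S-transferase matched 22 of the 24 genes that rose with SA; the other two were a glutathione peroxidase and a glutathione reductase. Near-identical copies in this large family could have shared reads.

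Among them, Zm00001eb141080, described as a probable glutathione S-transferase, had 62178, 44852 and 46387 normalised counts in the SA libraries, 3549, 5784 and 2889 in the Zip1 libraries, and 274, 651 and 1015 in the mock libraries. The groups did not overlap, and it rose with SA (6.30 ± 0.51, adjusted p = 7.28e-05, edgeR) and with Zip1 (2.65 ± 0.43, adjusted p = 0.0246, edgeR). The Zip1 call was lost without Zip1 replicate 2, mock replicate 1 or mock replicate 2. Zm00001eb397280, most like protein IN2-1 homolog B of rice, which holds transferase domains, had 7872, 7999 and 18546 normalised counts in the SA libraries, 929.6, 1169.7 and 911 in the Zip1 libraries, and 389, 574 and 483 in the mock libraries. It rose with SA (4.57 ± 0.36, adjusted p = 5.91e-05, edgeR) and was lower in Zip1 than in SA leaves (−3.51 ± 0.34, adjusted p = 0.00049, edgeR), as was its relative Zm00001eb012920 (−2.44 ± 0.25, adjusted p = 0.000548, edgeR).

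The glutathione peroxidase Zm00001eb074350, of a family that removes lipid peroxides, rose with both treatments. It had 13815, 12544 and 17697 normalised counts in the SA libraries, 13612, 14668 and 15633 in the Zip1 libraries, and 4039.5, 4575 and 5327 in the mock libraries. The log2 fold change was 1.66 ± 0.19 with SA (adjusted p = 0.000555, edgeR) and 1.66 ± 0.19 with Zip1 (adjusted p = 0.0101, edgeR). The Zip1 call was lost without mock replicate 1 (0.0646). The number of genes of the list called for Zip1 against mock became 0 when mock replicate 1 was left out, 1 when mock replicate 2 was and 2 when Zip1 replicate 2 was (1 higher, 1 lower, with 1 of the 4 genes among them). It was 16 with DESeq2 (15 higher, 1 lower) and 12 with the replicate block (11 higher, 1 lower), and the count of 17 for Zip1 against SA was 10 without SA replicate 3.

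Of 12 tested genes that make methionine and S-adenosylmethionine, 2 rose and 2 fell with SA against mock (33.3%, against 6.22% of all tested genes), and 2 were higher and 0 lower in Zip1 than in SA leaves (16.7%, against 4.11%). For Zip1 against mock edgeR called 0 (0.884% of all tested genes), with 4 at an unadjusted p under 0.05, and DESeq2 called 2. The 2 that rose with SA were S-adenosylmethionine synthases, which make the cell's methyl donor and are neighbours by identifier. Zm00001eb130870 had 10172, 9386 and 16788 normalised counts in the SA libraries, 7155, 8276 and 7193 in the Zip1 libraries, and 3834, 2742 and 4090.2 in the mock libraries (SA against mock 1.77 ± 0.25, adjusted p = 0.00174, edgeR). Zm00001eb130880, with the same description, gave 1.87 ± 0.29 (adjusted p = 0.00287, edgeR).

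The 2 that fell were homocysteine methyltransferases, which make methionine. Zm00001eb052750 had 276, 355 and 237 normalised counts in the SA libraries, 749, 808 and 634 in the Zip1 libraries, and 532, 597 and 541 in the mock libraries. It fell with SA (−0.94 ± 0.19, adjusted p = 0.0142, edgeR) and was higher in Zip1 than in SA leaves (1.33 ± 0.19, adjusted p = 0.00371, edgeR). Zm00001eb218320 gave −1.04 ± 0.26 for SA against mock (adjusted p = 0.0377, edgeR) and 1.33 ± 0.26 for Zip1 against SA (adjusted p = 0.0181, edgeR). Without SA replicate 3 or without mock replicate 2, neither fall was called. Only 1 of the 2 falls was called without SA replicate 1, mock replicate 1 or mock replicate 3. The call of Zm00001eb218320 for Zip1 against SA was lost without SA replicate 1, SA replicate 3 or Zip1 replicate 2.

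The list for sulfite, sulfation and cofactors gave 5 higher and 0 lower of 42 tested genes for SA against mock (11.9%, against 6.22% of all tested genes), 2 higher and 0 lower for Zip1 against mock (4.76%, against 0.884%), and 1 higher and 3 lower for Zip1 against SA (9.52%, against 4.11%). The SA count was 3 when mock replicate 1 was left out and 8 with DESeq2. The Zip1 count was 0 when Zip1 replicate 1, Zip1 replicate 2, mock replicate 1 or mock replicate 2 was left out, 1 when SA replicate 1 or Zip1 replicate 3 was or in the fit of 6 libraries, and 4 with DESeq2. For Zip1 against SA the count was 8 with DESeq2 and 7 with the replicate block, and no gene was called higher in any fit without 1 library. The genes that moved were mostly not enzymes of sulfur metabolism: all 5 that rose with SA matched the words for molybdopterin, the molybdenum cofactor, and 3 of them were described as indole-3-acetaldehyde oxidase. Of these, Zm00001eb060260 had 16401, 14796 and 21233 normalised counts in the SA libraries, 1752, 1697 and 1686 in the Zip1 libraries, and 1375, 939 and 1093 in the mock libraries. It rose with SA (3.94 ± 0.22, adjusted p = 7.03e-06, edgeR) and was lower in Zip1 than in SA leaves (−3.35 ± 0.21, adjusted p = 2.92e-05, edgeR). Zm00001eb213190 rose with SA (4.31 ± 0.31, adjusted p = 3.69e-05, edgeR) and with Zip1 (1.59 ± 0.28, adjusted p = 0.0305, edgeR), and was lower in Zip1 than in SA leaves (−2.73 ± 0.29, adjusted p = 0.000685, edgeR). The Zip1 call on Zm00001eb213190 was lost in 5 of the 9 fits without 1 library, at up to 0.155 without mock replicate 1.

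The other gene that rose with Zip1 was a cytosolic sulfotransferase, of a family that moves sulfate groups onto small molecules. Zm00001eb327110 had 247, 354 and 129 normalised counts in the Zip1 libraries, 127, 213 and 122 in the SA libraries, and 52.2, 49.9 and 69.9 in the mock libraries. It rose with Zip1 (2.08 ± 0.40, adjusted p = 0.0435, edgeR), a call lost in 6 of the 9 fits without 1 library, at up to 0.183 without mock replicate 1.

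Of 7 tested genes matched by words for the response to low sulfur, 1 rose with SA (14.3%, against 6.22% of all tested genes). These words included the protein names ETHYLENE INSENSITIVE 3-like and selenium-binding, so a match does not by itself make a gene part of that response. EdgeR called 0 for Zip1 against mock (against 0.884%), with 1 at an unadjusted p under 0.05, and 0 for Zip1 against SA (against 4.11%), with 4. DESeq2 called 2 for SA against mock, 0 for Zip1 against mock and 2 for Zip1 against SA. The gene, Zm00001eb143460, was described as selenium-binding protein 2 and had 14877, 13112 and 21693 normalised counts in the SA libraries, 10298, 8767 and 10731 in the Zip1 libraries, and 4912, 5788 and 9480.2 in the mock libraries. It rose with SA (1.30 ± 0.27, adjusted p = 0.0163, edgeR), and the call was lost without SA replicate 3, mock replicate 1 or mock replicate 2.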

How the data were processed

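The files hold messenger RNA counts of 9 leaf libraries, after poly-A selection and random-hexamer priming per the labels. Values are whole-number counts of reads per gene, as the authors deposited them; HISAT2 2.0.5, featureCounts 1.5.0-p3 and DESeq2 1.20.0 are named in the submitters' processing notes. The genome build and strand setting are not given in the sources used here, and coordinates are those of the table. The deposited FPKM file was not used, since its decimal points were lost. A line without content was left out.

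Counts were fitted with edgeR 4.0.16 in R 4.3.3 (TMM factors, filterByExpr on 3 groups, robust glmQLFit and glmQLFTest, all 9 libraries, group as the only term). Of 39755 genes, 23077 passed the filter; 49 of the 58 members did, and 3 members had no count. P-values were adjusted by Benjamini-Hochberg over all tested genes and called under 0.05. Standard errors were derived from the F statistic (absolute log2 change divided by its root). Levels per length divide counts by the table's gene length and the scaled library size. The common dispersion was 0.118. Counts carry no molecular identifiers. A p that misses the threshold does not show that groups are alike. The test was checked on simulated data.

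The members, roles and word lists were chosen with earlier results of these data known. Named are members called in any comparison, the most abundant member of each role, the uncalled member with the smallest p in each comparison, and 2 called genes with the smallest p per list; other names were chosen after their values were seen, for contrast. Alternatives were RLE factors, the DESeq2 1.42.0 Wald test, no filter, a replicate block, the 6 libraries compared, and each library left out. Deviations of same-numbered SA and mock libraries from their group means correlated at 0.154, 0.164 and 0.13, each over 0.1, and the numbers were taken to pair these groups. The main fit leaves this pairing out, and only the replicate block uses it. The block moved no call of a named gene for SA against mock except where stated. Promoter motifs were not analysed here, as no sequences were used.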

Additional observations from a re-analysis of the deposited data

How the results depend on the processing

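The number of members called for SA against mock was 9 with RLE factors and with no filter, 11 with DESeq2 and with the replicate block, and 8 in the fit of 6 libraries; for Zip1 against SA it was 6, 6, 9, 8 and 6 under the same settings. Leaving out 1 library gave 7 to 9 members for SA against mock, 0 in every fit for Zip1 against mock, and 5 to 7 for Zip1 against SA. For Zip1 against mock the 1 call became 3 with DESeq2, 3 with the replicate block (the transporter Zm00001eb008170 and the nitrite reductase Zm00001eb255880 were added) and 0 in the fit of 6 libraries. Over all genes, DESeq2 called 2449 for SA against mock, 930 for Zip1 against mock and 2037 for Zip1 against SA, and with the replicate block 2220, 574 and 1553, beside 1436, 204 and 949. Without 1 library these counts ran from 839 (without SA replicate 3) to 1414, from 0 (without mock replicate 1, where 2184 genes had an unadjusted p under 0.05) to 243, and from 456 (without Zip1 replicate 3) to 960. Replicate numbers were taken to pair 2 groups where each of the 3 correlations of deviations was over 0.1. By that rule SA and mock were paired. For Zip1 the correlations were all positive but not all over 0.1 (0.0745 to 0.16 with mock, 0.0759 to 0.157 with SA), so the rule leaves its pairing unsettled. In the labels, the library codes of same-numbered libraries share a letter in all groups, Zip1 included. What the letter stands for is not stated. For Zip1 against SA, the block added the members Zm00001eb293180 and Zm00001eb376790. The causes of these shifts were not tested.

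Directions turned only in uncalled values near 0 when 1 library was left out. For Zip1 against mock, log2 fold changes ran from −0.16 (without mock replicate 3; also below 0 without Zip1 replicate 1) to 0.25 for Zm00001eb400760, from −0.14 (without Zip1 replicate 1) to 0.23 for Zm00001eb354890, from −0.11 to 0.035 (without Zip1 replicate 3; also above 0 without mock replicate 1) for Zm00001eb293180, and from −0.10 to 0.035 (without mock replicate 2) for Zm00001eb032380. For Zip1 against SA they ran from −0.22 to 0.057 (without Zip1 replicate 2) for Zm00001eb115490. Members with few counts, such as the 9 not tested, cannot be compared at this depth.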

Other observations

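Genes around the reductases and the glutathione pool were looked up after the values above were seen. The called glutathione reductase below was already counted in the list for glutathione use and turnover. The called nitrate reductase was already counted among the molybdopterin matches. Of 2 glutathione reductase genes, which return oxidised glutathione to its thiol form, the cytosolic Zm00001eb258600 rose with SA (1.36 ± 0.23 on the log2 scale, adjusted p = 0.00499, edgeR), with 16871, 16055 and 25582 normalised counts in the SA libraries, 10407, 13101 and 12702 in the Zip1 libraries, and 6327, 7258 and 9186 in the mock libraries. The groups did not overlap, and this call stood in all 9 fits without 1 library. The chloroplast gene, Zm00001eb004790, had 1478, 1619 and 1531 normalised counts in the SA libraries, 1593, 1436 and 1196 in the Zip1 libraries, and 1528, 1924 and 1195 in the mock libraries, and was not called. The share called for SA against mock over all tested genes was 6.22%.

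Nitrate reductase makes the nitrite that nitrite reductase uses. Of 15 genes so described, 6 were tested and 1 was called, for SA against mock, where 6.22% of all tested genes were called. This gene, Zm00001eb193390, had 178, 73.8 and 12.9 normalised counts in the SA libraries, 21.2, 7.47 and 20.0 in the Zip1 libraries, and 6.26, 0 and 5.91 in the mock libraries (adjusted p = 0.0391, edgeR; called in 2 of the 9 fits without 1 library). The most abundant nitrate reductase, Zm00001eb176470, varied within groups, at 3379, 1386 and 729.8 normalised counts in the SA libraries, 798, 593 and 370.1 in the Zip1 libraries, and 3809.9, 1289 and 718 in the mock libraries. All SA libraries lay above all mock libraries in Zm00001eb256260, Zm00001eb037860 and the scarce Zm00001eb245550. In Zm00001eb245550 the gap was small, at 5.38 normalised counts in SA replicate 3 against 4.92 in mock replicate 3. How many of all tested genes separate in this way was not counted. None of these nitrate reductases passed the test for SA against mock (adjusted p = 0.113, 0.0794 and 0.437, edgeR). In Zm00001eb124130 SA and mock libraries overlapped. Both sirohydrochlorin ferrochelatase genes, which complete the siroheme cofactor of sulfite and nitrite reductase, were tested and neither was called (adjusted p = 0.595 and 0.843 for SA against mock, edgeR).

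A ferredoxin--NADP reductase of the root type, Zm00001eb059850, which supplies reduced ferredoxin in tissue without light, had 875, 1113 and 731 normalised counts in the SA libraries, 576, 753 and 560.4 in the Zip1 libraries, and 363, 456 and 627 in the mock libraries. It rose with SA (0.91 ± 0.24, adjusted p = 0.0459, edgeR), a call that stood in 1 of the 9 fits without 1 library. The other 5 tested genes of that description were not called. Of all tested genes, 6.22% were called for SA against mock.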
